A study of Homo sapiens with 12 samples.

Results

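A set of 44 genes that fold, glycosylate, move or discard proteins in the endoplasmic reticulum (ER), or that sense and transmit ER stress, was followed among the 61860 genes counted in 22Rv1 cells, an established human prostate cancer line derived from a xenograft tumour. Members were taken by gene symbol and matched to 1 Ensembl identifier each, and all 44 were present in both count tables and passed the expression filter in every comparison. By role they were 13 chaperones and co-chaperones, 3 proteins of the lectin chaperone cycle, 8 disulfide enzymes, 9 genes of ER-associated degradation, 6 stress sensors and transcription factors, and 5 subunits of the translocon and its partners. The study concerned phosphorylated RB, the transcription factor ETS1 and sensitivity to CDK4/6 inhibitors, and no label names an inhibitor for these libraries. Of the 12 RNA-seq libraries, 3 came from 22Rv1 cells given siRNA against ETS1 and 3 from the controls of that knockdown, and 3 came from cells given siRNA against ZNF783, a zinc finger protein, and 3 from separate controls of that second knockdown. All cells were grown in RPMI medium with fetal bovine serum, and every group is the same single line. The labels give no siRNA sequence or time of harvest. Nor do they tell if the 3 libraries of a group are independent cultures, and every p-value here rests on library-to-library spread that could be technical.

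Proteins bound for secretion or for membranes enter the ER through the SEC61 channel, fold with the help of chaperones such as BiP (the product of HSPA5), and acquire disulfide bonds from the protein disulfide isomerases. Chains that fail to fold are returned to the cytosol and degraded. When unfolded chains accumulate, the sensors IRE1 (encoded by ERN1), PERK (EIF2AK3) and ATF6 start the unfolded protein response: IRE1 splices the XBP1 transcript into the form that encodes an active transcription factor, ATF6 is cleaved to release one, and PERK slows translation while favouring that of ATF4. ATF6 and XBP1 then raise the transcription of chaperone, disulfide isomerase and degradation genes. Luminal prostate epithelium is a secretory tissue. Gene counts do not show XBP1 splicing, ATF6 cleavage or PERK activity, and in bulk RNA fewer cells of a kind and less RNA per cell cannot be told apart.

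The promoters of many ER chaperone genes carry the ER stress response element (ERSE), spelled CCAAT, 9 bases and CCACG, which ATF6 binds together with the factor NF-Y, or the shorter ERSE-II, spelled ATTGG, 1 base and CCACG. The promoters below are shown because these are members with the largest changes with ZNF783 siRNA that hold either element within 250 bases before to 50 bases after the annotated start. Sequences are from RefSeq on GRCh38.p14, 5′ to 3′ on the gene's own strand, and capitals mark the element. They are HSPA5 at chr9:125241294-125241593 on the minus strand, HYOU1 at chr11:119057156-119057455 on the minus strand and SDF2L1 at chr22:21642052-21642351 on the plus strand.
HSPA5: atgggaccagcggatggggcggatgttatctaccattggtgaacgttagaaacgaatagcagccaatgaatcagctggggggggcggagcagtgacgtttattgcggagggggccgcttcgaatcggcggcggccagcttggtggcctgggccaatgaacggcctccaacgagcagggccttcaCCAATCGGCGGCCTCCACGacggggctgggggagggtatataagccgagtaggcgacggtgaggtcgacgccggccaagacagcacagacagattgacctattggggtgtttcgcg
HYOU1: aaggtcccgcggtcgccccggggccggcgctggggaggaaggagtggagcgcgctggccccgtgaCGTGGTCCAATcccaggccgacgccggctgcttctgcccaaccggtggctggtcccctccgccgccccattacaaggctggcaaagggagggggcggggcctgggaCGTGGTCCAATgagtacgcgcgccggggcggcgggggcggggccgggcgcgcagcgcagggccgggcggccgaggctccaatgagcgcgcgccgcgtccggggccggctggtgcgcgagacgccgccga
SDF2L1: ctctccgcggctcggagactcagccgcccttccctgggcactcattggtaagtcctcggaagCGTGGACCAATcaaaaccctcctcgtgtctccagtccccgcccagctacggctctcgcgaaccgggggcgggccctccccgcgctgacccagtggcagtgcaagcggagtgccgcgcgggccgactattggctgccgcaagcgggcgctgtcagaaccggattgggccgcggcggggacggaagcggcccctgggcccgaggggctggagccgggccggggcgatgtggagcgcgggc
In HSPA5 the ERSE spans bases -66 to -48 from the start, on the gene's strand. HYOU1 holds an ERSE-II at -185 to -175 and a second at -79 to -69, and SDF2L1 holds 1 at -188 to -178, all on the opposite strand.

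On both strands of 35116 RefSeq promoters of this length, an ERSE or ERSE-II was found in 46 (0.131%). The promoter table held 41 of the 44 members, with 50 promoters in all. Of those 50, 13 (26%) held either element, which came to 11 of the 41 members. These 13 are among the 46, and the overlapping CANX promoters hold the same ERSE site, counted once per promoter. The ERSE was in the promoters of CALR, CANX, CRELD2, ERO1B, HSP90B1, HSPA5, PDIA6 and XBP1, and the ERSE-II in those of HERPUD1, HYOU1 and SDF2L1. The element TGACGTGG, known as the unfolded protein response element, was in 0.729% of all promoters and in those of DNAJC10, HYOU1, SEC62 and TXNDC5. In HYOU1 it overlaps the first ERSE-II. An ETS core, CCGGAAGT, was in 4.14% of all promoters and in those of DNAJB9, EDEM2, EDEM3, SYVN1 and UGGT1. DNAJC1, DERL1 and PDIA3 had no entry. A match describes letters in this window only and is not a measured binding site.

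Total counts ran from 13518177 to 48996691 per library. ETS1 transcripts were at or under the floor of 3 counts in all 12 libraries (0, 3 and 0 with ETS1 siRNA, against 0, 1 and 0 in its controls), so the knockdown cannot be checked from them. ZNF783 had 28.7, 27.4 and 28.0 counts per 1000000 (CPM, scaled between libraries by trimmed mean of M values) with ZNF783 siRNA, against 33.9, 34.9 and 35.7 CPM in its controls. It thus kept 80.5% of the control level, a log2 fold change of -0.31 with a standard error (SE, given as ± throughout) of 0.055 and an adjusted p of 2.46e-05. ZNF783 was also lower with ETS1 siRNA, at 12.5, 18.7 and 18.5 CPM, against 21.0, 21.6 and 22.3 CPM in its controls (-0.23 ± 0.056 without replicate 1, adjusted p = 0.00146). It shares 1985 of its 6726 exon bases with the gene AC004890.2 on the same strand, so its level is uncertain. Both fold changes of ZNF783 are without the correction for GC content and length given further on. Of the luminal prostate markers, 8 of 8 were over 3 counts in at least 1 library of every group. So were 3 of 5 leukocyte and 1 of 4 endothelial markers, at low summed levels given further on, while CD3E, a T cell marker, was at 0. Of 5 fibroblast markers, 5 were over 3 counts in the ETS1 groups and 4 in the ZNF783 groups, and of 5 plasma cell markers, 3 and 2. One library did not resemble its group: counts of ETS1 siRNA replicate 1 gave a chi-square per degree of freedom of 40.3 and 38.9 against replicates 2 and 3, where those 2 gave 1.82 and the other groups 1.36 to 2.93. Counts of members with ETS1 siRNA are therefore given with and without it, and single members without it where they were called.

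Within a group the members were tightly measured, apart from the group that holds that library. The coefficient of variation of a member over 3 libraries had a median of 7.88% with ETS1 siRNA and 2.41% in its controls, and of 2.33% with ZNF783 siRNA and 2.21% in its controls. Per kilobase of annotated exon, CALR, HSP90B1 and HSPA5 were the most abundant members, at 516, 358 and 291 CPM per kb in the ETS1 controls and 478, 287 and 306 in the ZNF783 controls. CREBRF and TXNDC5 were among the least abundant, at 1.79 and 1.68 CPM per kb in the ETS1 controls and 1.61 and 3.14 in the ZNF783 controls. The level of TXNDC5 is uncertain because of an overlapping read-through gene, as given further on. The members summed to 9763, 9943 and 9947 CPM with ZNF783 siRNA, against 11134, 11181 and 11176 CPM in its controls. With ETS1 siRNA the sum was 12336, 12071 and 12188 CPM, against 11245, 11229 and 11195 CPM in its controls. The summed level of the set was thus below control in all 3 ZNF783 siRNA libraries and above control in all 3 ETS1 siRNA libraries, with no overlap in either experiment.

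With ZNF783 siRNA the chaperones and folding enzymes SDF2L1, HSPA5, PDIA4, HYOU1 and MANF fell most among the members, to 68.9% to 74.5% of control, while the regulators CREBRF and ATF6 rose. Of the 44 members, 24 fell, 2 rose and 18 did not pass the test (edgeR quasi-likelihood test, Benjamini-Hochberg adjusted p below 0.05 over 17630 genes). Among all genes tested 13.8% fell and 11.3% rose. The median log2 fold change of the members was -0.15, against 0.0017 for all genes. In 26 members all 3 siRNA libraries lay below all 3 controls, as in 19.8% of all genes, and in 4 they lay above, as in 18.3%. A joint fit of all 12 libraries, which takes in ETS1 siRNA replicate 1, called 9 members lower and 1 higher, beside 2.69% and 1.52% of all genes. DESeq2 called 21 lower and 2 higher, beside 8.37% and 6.92%.

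With ETS1 siRNA the folding genes ERO1A, HSPA13, HSPA5 and MANF were higher than control once replicate 1 was left out, but no member passed the test over all 6 libraries. Over those 6 libraries, edgeR called 0 of 44 members, beside 9 of 19542 genes in either direction (0.0461%). At an unadjusted p below 0.05 there were 13 members, all with a positive fold change, as held for 9.78% of all genes. DESeq2 called 7 members higher, beside 1.77% of all genes, and limma-voom called 0, beside 0.118% in either direction. Without ETS1 siRNA replicate 1 the same test called 22 members higher and 4 lower, where 9.96% of all genes were higher and 13% lower. The median log2 fold change of the members was 0.09 both with and without that library. In 17 members all 3 siRNA libraries lay above all 3 controls, as in 17.5% of all genes, and in 3 they lay below, as in 17.8%.

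**Figure D1:**
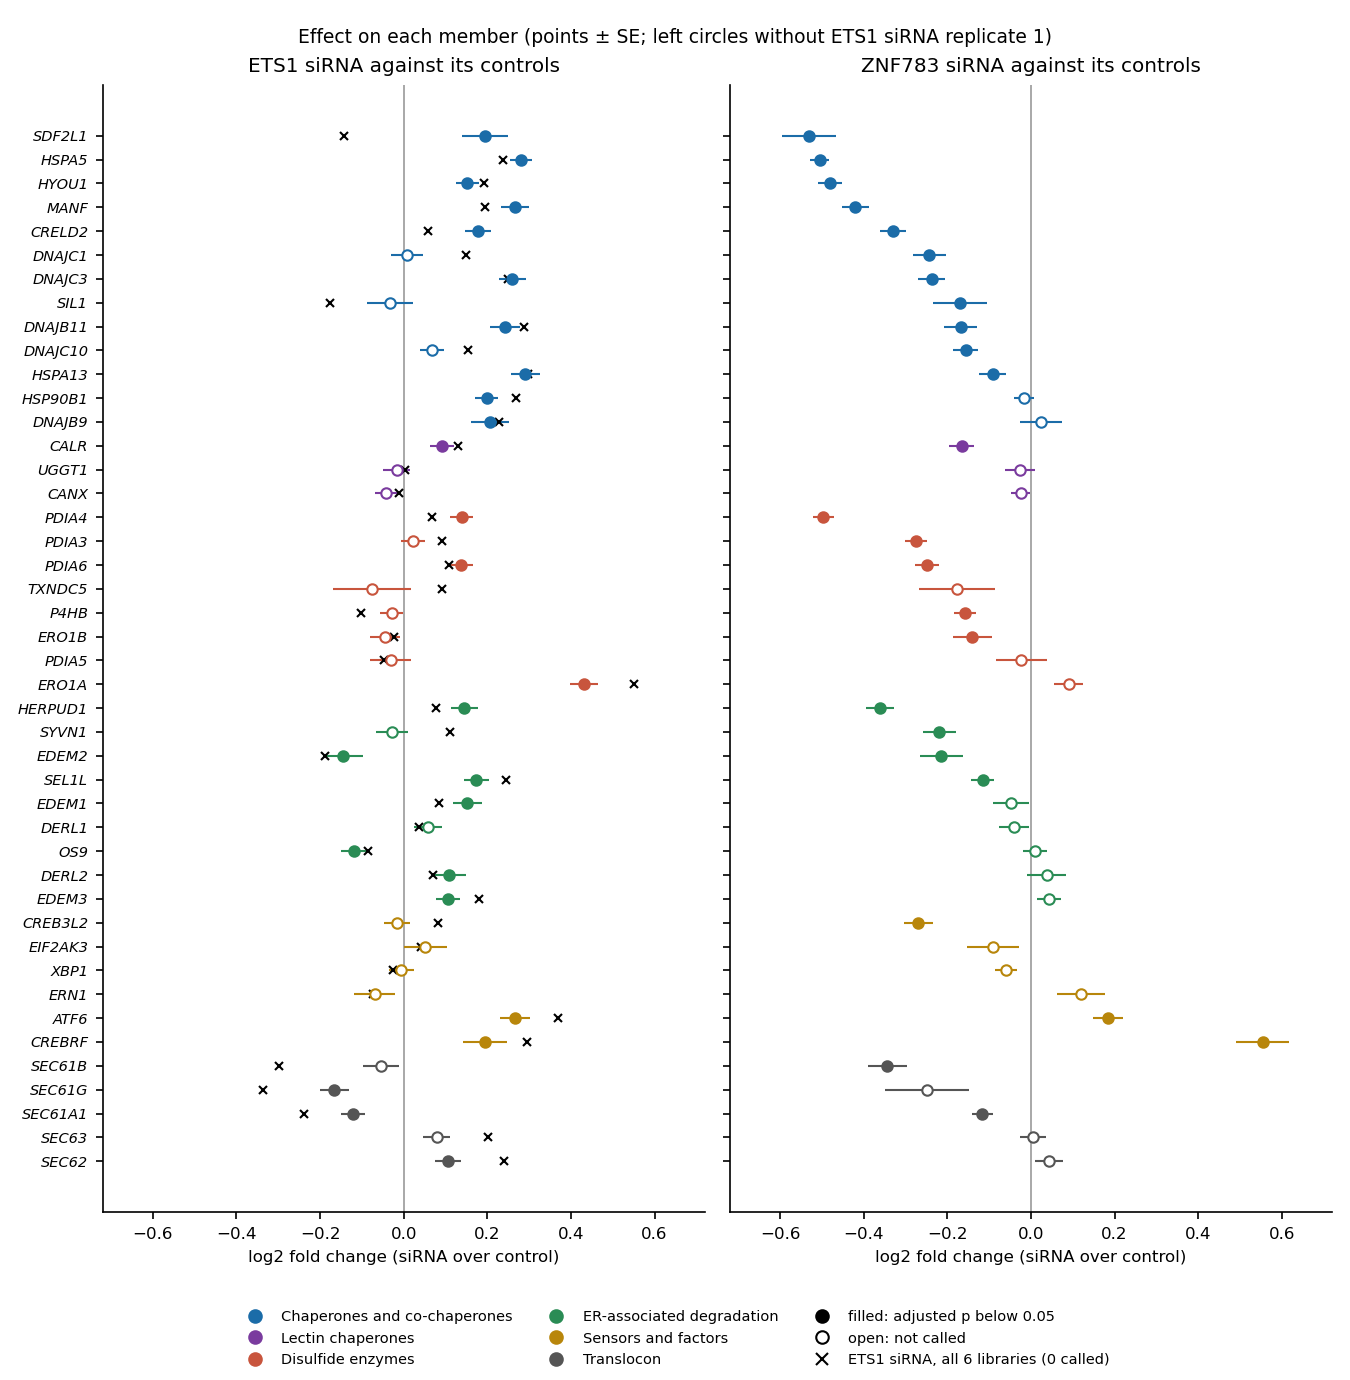
Log2 fold change (siRNA over its own control, ± SE) of each of the 44 members, grouped by role and ordered by the ZNF783 value. Left, ETS1 siRNA without replicate 1 (circles) and over all 6 libraries (crosses); right, ZNF783 siRNA. Filled circles passed an adjusted p of 0.05, with 22 higher and 4 lower on the left and 2 higher and 24 lower on the right, and no cross passed.

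Among the chaperones and co-chaperones, 11 of 13 fell with ZNF783 siRNA and none rose, the exceptions being HSP90B1 and DNAJB9. HSPA5, the ER member of the Hsp70 family (ENSG00000044574, GRCh38 chromosome 9, 125234853 to 125241330, minus strand), had 841, 839 and 846 CPM with ZNF783 siRNA, against 1188, 1188 and 1210 CPM in its controls. All treated libraries were low and nearly equal, far under every control (log2 fold change -0.51 ± 0.023, adjusted p = 4.95e-21). With ETS1 siRNA HSPA5 had 1247, 1382 and 1395 CPM, against 1154, 1149 and 1108 CPM in its controls. All 3 treated libraries were above all controls, replicate 1 least so. The log2 fold change was 0.24 ± 0.059 (adjusted p = 0.156) over all libraries and 0.28 ± 0.027 (adjusted p = 1.49e-12) without replicate 1.

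HYOU1, the large Hsp70-related chaperone that also acts as a nucleotide exchange factor for BiP, had 299, 299.6 and 295 CPM with ZNF783 siRNA, against 409, 437 and 401 CPM in its controls (log2 fold change -0.48 ± 0.028, adjusted p = 2.47e-17). In the ETS1 experiment it had 438, 407 and 411 CPM with siRNA, against 369, 361 and 369 CPM in its controls. The groups did not overlap in either experiment, and they were ordered in opposite ways. MANF, a secreted and ER-resident stress-induced protein that binds BiP, had 108, 102 and 101 CPM with ZNF783 siRNA, against 141, 137 and 139 CPM in its controls (log2 fold change -0.42 ± 0.033, adjusted p = 1.83e-13). With ETS1 siRNA MANF had 128, 147 and 161 CPM, against 125, 129 and 128 CPM in its controls. Replicate 1 lay among the controls and the other libraries above them, and without it the log2 fold change was 0.27 ± 0.034 (adjusted p = 2.76e-08).

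SDF2L1, a partner of the ER co-chaperone DNAJB11, had 47.5, 42.4 and 47.3 CPM with ZNF783 siRNA, against 67.8, 71.8 and 59.5 CPM in its controls, with no overlap (log2 fold change -0.53 ± 0.065, adjusted p = 3.31e-05). With ETS1 siRNA it had 19.1, 56.8 and 58.4 CPM, against 47.1, 47.4 and 54.8 CPM in its controls. Replicate 1 was far below every other library and the remaining treated libraries were above the controls, so the sign depends on that 1 library: the log2 fold change was -0.14 ± 0.36 (adjusted p = 0.841) with it and 0.19 ± 0.055 (adjusted p = 0.0204) without it.

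Of the co-chaperones of the J-domain family, which stimulate the ATPase of BiP, all but DNAJB9 were called lower with ZNF783 siRNA. DNAJC3, also known as p58IPK, had 133, 129 and 130.2 CPM with ZNF783 siRNA, against 153, 148 and 161 CPM in its controls (log2 fold change -0.24 ± 0.033, adjusted p = 2.5e-07). Under ETS1 siRNA the values were 153, 159 and 155 CPM, against 133, 134 and 125 CPM in its controls, again without overlap (0.26 ± 0.032 without replicate 1, adjusted p = 6.31e-09). DNAJB9, a co-chaperone that in other cells is among the most inducible targets of XBP1, had 39.5, 37.6 and 38.4 CPM with ZNF783 siRNA, against 38.0, 37.0 and 38.7 CPM in its controls. These groups overlapped (log2 fold change 0.02 ± 0.050, adjusted p = 0.77). With ETS1 siRNA DNAJB9 had 40.3, 39.0 and 38.8 CPM, against 32.8, 35.1 and 32.9 CPM in its controls, all treated libraries above control (0.21 ± 0.045 without replicate 1, adjusted p = 0.000303). DNAJC1, DNAJB11 and DNAJC10 fell with ZNF783 siRNA by 0.24, 0.17 and 0.16 on the log2 scale.

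HSP90B1 (GRP94), the ER member of the Hsp90 family, had 1298, 1332 and 1363 CPM with ZNF783 siRNA, against 1345, 1330 and 1360 CPM in its controls. The groups overlapped (log2 fold change -0.02 ± 0.023, adjusted p = 0.672), and its promoter, like that of HSPA5, holds an ERSE. With the correction for GC content and length, given further on, HSP90B1 was called lower with ZNF783 siRNA. Under ETS1 siRNA the values were 2205, 1962 and 1914 CPM, against 1694, 1705 and 1645 CPM in its controls, without overlap (0.20 ± 0.026 without replicate 1, adjusted p = 2.68e-08). HSPA13, a less studied microsomal Hsp70, had 114, 113 and 111 CPM with ZNF783 siRNA, against 121, 118 and 121 CPM in its controls (log2 fold change -0.09 ± 0.033, adjusted p = 0.0319). The ETS1 siRNA libraries had 118, 115 and 122 CPM, against 90.9, 98.5 and 99.2 CPM in its controls (0.29 ± 0.035 without replicate 1, adjusted p = 1.16e-08). The decrease of HSPA13 with ZNF783 siRNA lost its call in 9 of 18 alternatives and that of SIL1, a nucleotide exchange factor for BiP (-0.17, adjusted p = 0.0473), in 16 of 18. CRELD2, a stress-induced secreted protein, fell with ZNF783 siRNA by 0.33 (adjusted p = 4.12e-11) and was higher without replicate 1 with ETS1 siRNA by 0.18 (adjusted p = 1.26e-05).

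**Figure D2:**
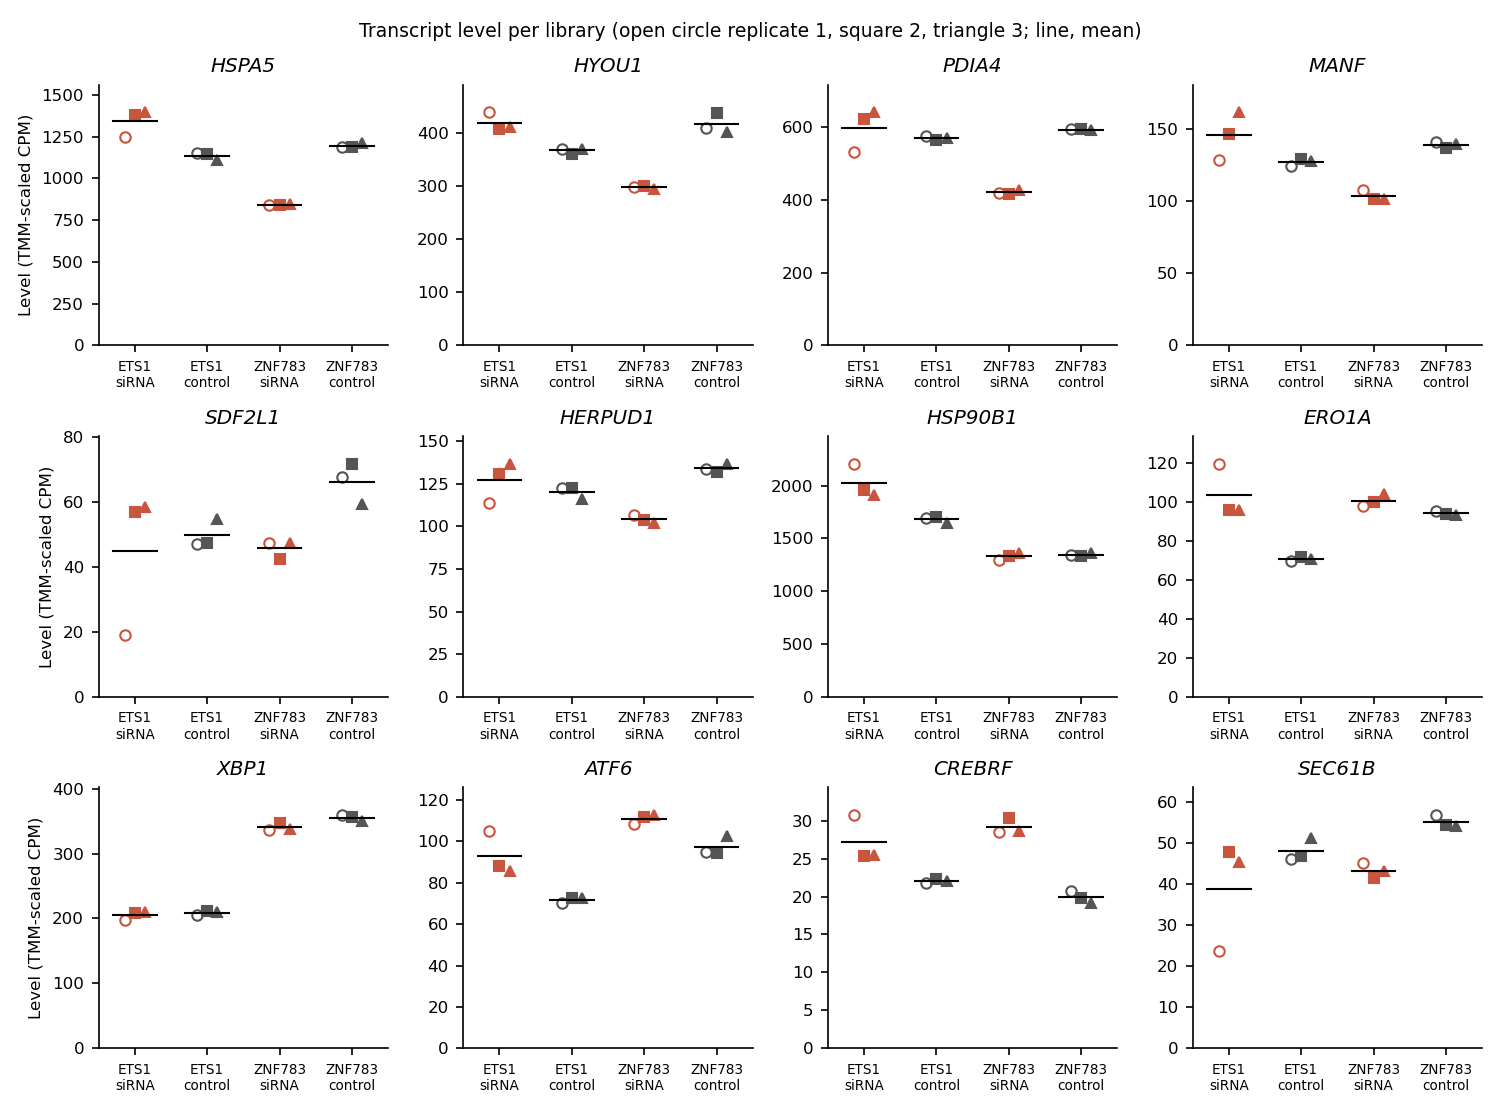
Level of 12 members (TMM-scaled CPM, axis from 0) in each library; symbols are single libraries (open circle, replicate 1) and lines are means of 3. HSPA5 sits at 839 to 846 CPM with ZNF783 siRNA, under all other libraries, while ETS1 siRNA replicate 1 departs from its group in SDF2L1 and SEC61B.

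In the lectin chaperone cycle, which retains glycoproteins until they fold, 1 of 3 members fell with ZNF783 siRNA. CALR, encoding the soluble lectin calreticulin, had 1104, 1215 and 1152 CPM with ZNF783 siRNA, against 1278, 1343 and 1272 CPM in its controls, without overlap (log2 fold change -0.17 ± 0.029, adjusted p = 0.000158). With ETS1 siRNA CALR had 1595, 1467 and 1532 CPM, against 1398, 1347 and 1455 CPM in its controls (0.09 ± 0.029 without replicate 1, adjusted p = 0.0153). CANX, the membrane lectin calnexin, and UGGT1, the glucosyltransferase that marks unfolded glycoproteins, did not pass the test with either siRNA, with or without replicate 1. Corrected for GC content and length, as given further on, CANX was called lower with ZNF783 siRNA, and with ETS1 siRNA without replicate 1. The uncorrected log2 fold changes of CANX and UGGT1 with ZNF783 siRNA were both -0.03, and with ETS1 siRNA over all libraries they were -0.01 and 0.00.

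Of the 8 disulfide enzymes, 5 fell with ZNF783 siRNA and none rose. PDIA4, a protein disulfide isomerase found in complexes with BiP, had 418, 417 and 429 CPM with ZNF783 siRNA, against 596, 595 and 592 CPM in its controls. The groups were far apart (log2 fold change -0.50 ± 0.025, adjusted p = 7.64e-20). With ETS1 siRNA PDIA4 had 533, 622 and 641 CPM, against 577, 565 and 571 CPM in its controls. Replicate 1 was below the controls and the other libraries above them (0.14 ± 0.027 without replicate 1, adjusted p = 7.74e-05). PDIA4 (chromosome 7, 149003062 to 149028641, minus strand) lies on the same chromosome arm as the targeted gene ZNF783 (149262171 to 149297302, plus strand). PDIA3, PDIA6, P4HB and ERO1B fell with ZNF783 siRNA by 0.28, 0.25, 0.16 and 0.14. PDIA3 shares 1410 of its 4240 exon bases with genes on the other strand and PDIA6 shares 1033 of 4101, and since the counting was not stranded their values are less certain.

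ERO1A, the oxidase that returns disulfide isomerases to their active state, had 119, 95.7 and 95.5 CPM with ETS1 siRNA, against 69.7, 71.4 and 70.6 CPM in its controls. All treated libraries were above all controls, replicate 1 most so, and this was the highest fold change of any member with ETS1 siRNA (log2 0.55 ± 0.094, adjusted p = 0.0976 over all libraries, and 0.43 ± 0.034, adjusted p = 2.17e-15, without replicate 1). With ZNF783 siRNA ERO1A had 97.6, 99.6 and 103.9 CPM, against 95.3, 93.6 and 93.2 CPM in its controls, which did not pass the test (0.09 ± 0.035, adjusted p = 0.0562). PDIA5 and TXNDC5 passed in neither experiment. TXNDC5 shares 2658 of its 4387 exon bases with the read-through gene BLOC1S5-TXNDC5, so its level of 1.68 CPM per kb in the ETS1 controls is uncertain.

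In ER-associated degradation, 4 of 9 members fell with ZNF783 siRNA: HERPUD1, SYVN1, EDEM2 and SEL1L. HERPUD1, a stress-induced scaffold of the retrotranslocation complex, had 106.8, 104 and 102 CPM with ZNF783 siRNA, against 134, 132 and 137 CPM in its controls (log2 fold change -0.36 ± 0.033, adjusted p = 1.04e-11). With ETS1 siRNA it had 114, 131 and 137 CPM, against 122, 123 and 116 CPM in its controls. These groups overlapped through replicate 1 (0.14 ± 0.033 without it, adjusted p = 0.000484). SYVN1, the ubiquitin ligase of this pathway, and SEL1L, its adaptor, fell with ZNF783 siRNA by 0.22 and 0.12. SEL1L had 227, 201 and 198 CPM with ETS1 siRNA, against 177, 178 and 173 CPM in its controls, without overlap.

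EDEM2, which trims mannose from misfolded glycoproteins, had 35.7, 36.0 and 33.5 CPM with ZNF783 siRNA, against 41.8, 39.6 and 41.2 CPM in its controls (log2 fold change -0.21 ± 0.051, adjusted p = 0.00122). In the ETS1 experiment EDEM2 had 28.1, 31.7 and 32.0 CPM with siRNA, against 34.6, 32.6 and 37.5 CPM in its controls (-0.15 ± 0.049 without replicate 1, adjusted p = 0.0239). EDEM2 was below control in all treated libraries of both experiments. With the correction for GC content and length, given further on, it was not called with ETS1 siRNA without replicate 1. OS9, a lectin that delivers glycoproteins to the ligase, had 161, 154 and 153 CPM with ETS1 siRNA, against 167, 161 and 168 CPM in its controls (-0.12 ± 0.031 without replicate 1, adjusted p = 0.00236), overlapping only through replicate 1. With ZNF783 siRNA OS9 had 184, 191 and 183 CPM, against 185, 183 and 186 CPM in its controls, which overlapped. EDEM1, EDEM3 and DERL2 were called higher with ETS1 siRNA without replicate 1, by 0.15, 0.11 and 0.11, and not with ZNF783 siRNA. DERL1 passed in neither, but was called lower with ZNF783 siRNA with that correction.

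Among the sensors and factors, XBP1, ERN1 and EIF2AK3 passed the test in neither experiment. XBP1 had 336, 348 and 338 CPM with ZNF783 siRNA, against 359, 356 and 350.0 CPM in its controls. All treated libraries were slightly below all controls, but the difference did not pass (log2 fold change -0.06 ± 0.026, adjusted p = 0.0952). Corrected for GC content and length of genes, as given further on, it was -0.12 and did pass. With ETS1 siRNA XBP1 had 197, 209 and 210 CPM, against 205, 212 and 210.2 CPM in its controls, which overlapped (-0.03 ± 0.051, adjusted p = 0.785). The XBP1 level of the controls thus differed between the experiments by more than either siRNA changed it. The tables, however, were normalized separately and were not tested against each other.

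ERN1, encoding IRE1, had 31.9, 31.9 and 31.2 CPM with ZNF783 siRNA, against 26.8, 30.6 and 30.0 CPM in its controls (log2 fold change 0.12 ± 0.058, adjusted p = 0.128). With ETS1 siRNA it had 27.0, 27.2 and 28.9 CPM, against 29.02, 28.8 and 29.8 CPM in its controls (-0.07 ± 0.063, adjusted p = 0.518). EIF2AK3, encoding PERK, had 23.8, 24.0 and 25.4 CPM with ZNF783 siRNA, against 26.4, 25.4 and 25.9 CPM in its controls (-0.09 ± 0.062, adjusted p = 0.304). The ETS1 siRNA libraries had 26.5, 26.2 and 29.3 CPM of EIF2AK3, against 26.4, 27.4 and 26.0 CPM in the controls. Apart from ERN1 with ZNF783 siRNA, where all treated libraries were above all controls, the groups overlapped.

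ATF6 was the sensor transcript that rose with ZNF783 siRNA. It had 108, 112 and 113 CPM with ZNF783 siRNA, against 94.9, 94.6 and 102 CPM in its controls (log2 fold change 0.18 ± 0.036, adjusted p = 9.31e-05). With ETS1 siRNA ATF6 had 105, 88.0 and 85.5 CPM, against 70.3, 72.5 and 72.7 CPM in its controls (0.37 ± 0.086, adjusted p = 0.144, and 0.27 ± 0.035, adjusted p = 1.62e-08, without replicate 1). The treated libraries were above the controls in both experiments. CREBRF, a negative regulator of the factor CREB3, had 28.5, 30.4 and 28.7 CPM with ZNF783 siRNA, against 20.7, 19.9 and 19.2 CPM in its controls, the highest fold change of any member there (0.55 ± 0.063, adjusted p = 4.42e-09). With ETS1 siRNA CREBRF had 30.7, 25.3 and 25.5 CPM, against 21.8, 22.4 and 22.1 CPM in its controls (0.19 ± 0.052 without replicate 1, adjusted p = 0.00338). CREB3L2, an ER-anchored factor related to ATF6, fell with ZNF783 siRNA by 0.27 (adjusted p = 6.59e-08) and did not pass with ETS1 siRNA.

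Of the translocon genes, SEC61B and SEC61A1 fell with ZNF783 siRNA. SEC61A1, the channel-forming subunit, had 450.3, 445 and 457 CPM with ZNF783 siRNA, against 484, 488 and 492 CPM in its controls (log2 fold change -0.12 ± 0.025, adjusted p = 0.00036). With ETS1 siRNA it had 273, 357 and 367 CPM, against 392, 386 and 397 CPM in its controls (-0.12 ± 0.028 without replicate 1, adjusted p = 0.000733). All treated libraries were below all controls in both experiments. SEC61G, a small subunit, had 59.3, 90.3 and 94.8 CPM with ETS1 siRNA, against 99.3, 105 and 105 CPM in its controls (-0.17 ± 0.034 without replicate 1, adjusted p = 0.000152). With ZNF783 siRNA SEC61G had 77.6, 60.6 and 71.5 CPM, against 85.8, 84.6 and 80.4 CPM in its controls, where replicates were spread and the test was not passed (-0.25 ± 0.10, adjusted p = 0.156). SEC61B fell with ZNF783 siRNA by 0.34 (adjusted p = 1.68e-07). SEC62 and SEC63 both assist the channel after translation. SEC62 was called higher with ETS1 siRNA without replicate 1, by 0.11. SEC63 was called with neither siRNA, but was called lower with ZNF783 siRNA with the correction for GC content and length.

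SDF2L1, SEC61B and SEC61G, the 3 members with the shortest annotated exons, were the members lowest in ETS1 siRNA replicate 1 relative to replicates 2 and 3. Not every short transcript was low there: DAD1, a subunit of the oligosaccharyltransferase, and HSPB1, a small cytosolic heat shock protein, both with shorter exons than SEC61G and chosen after their values were seen, were higher there by 0.12 and 0.22 on the log2 scale. Other genes with shorter exons than SEC61G, likewise chosen after their values were seen, were lower there: DDIT3 at -0.50, OSTC at -0.19 and SRP9 at -0.03. SEC61B had 23.6 CPM in replicate 1 and 47.8 and 45.5 CPM in the others, against 46.2, 46.9 and 51.3 CPM in the controls. Across the 44 members the log2 ratio of replicate 1 to the mean of the others had a Pearson r of 0.639 (Spearman rho 0.538) with log2 exon length and of -0.464 (-0.379) with GC content. These are descriptions of 1 library, and the part of length, GC content or RNA quality in the results was not tested beyond the corrections given here.

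**Figure D3:**
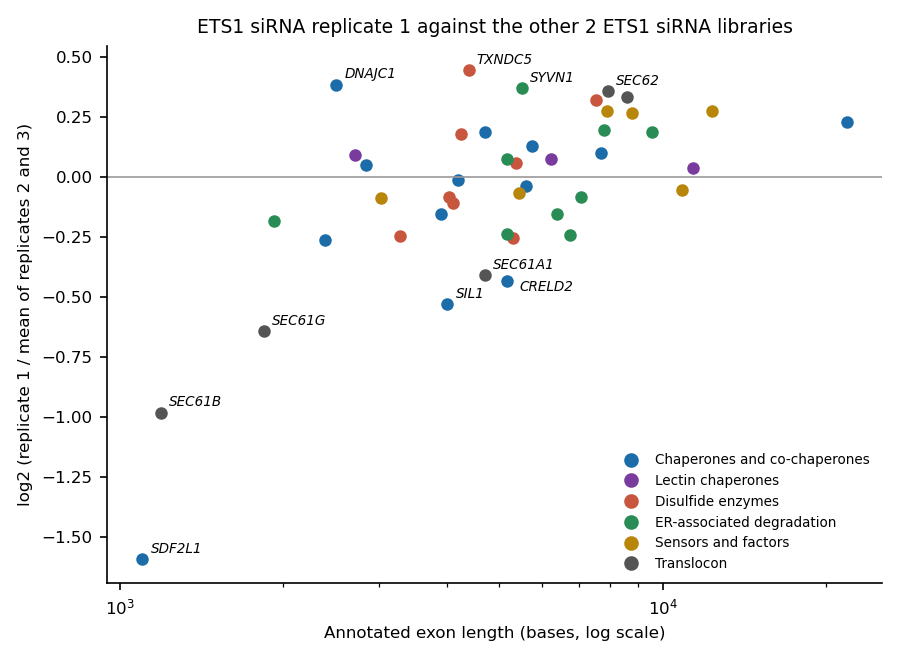
Log2 ratio of ETS1 siRNA replicate 1 to the mean of replicates 2 and 3 for each of the 44 members, against annotated exon length in bases (log axis), coloured by role. SDF2L1 and SEC61B, both with short exons, fall farthest below 0.

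Across genes averaging at least 10 CPM, the log2 fold change with both siRNAs was lower in genes of higher GC content. The Spearman correlation was -0.53 for ZNF783 siRNA over 10452 genes, and -0.643 for ETS1 siRNA over 10253 genes, or -0.558 without replicate 1. Among the members it was -0.507 with ZNF783 siRNA. After each library was corrected for GC content and length, 28 members were lower and 2 higher with ZNF783 siRNA, beside 11.5% and 7.79% of all genes, and HSPA5 had a log2 fold change of -0.53. The correction added XBP1, CANX, HSP90B1, DERL1 and SEC63, at -0.12 to -0.080, and SIL1 was no longer called. With ETS1 siRNA the correction gave 1 member called over all libraries (ERO1A), beside 0.128% of all genes. Without replicate 1 it gave 18 higher and 6 lower, beside 7.78% and 12.4% of all genes, so the share lower was near that of all genes. The 6 were SEC61G, ERO1B, CANX, OS9, SEC61A1 and XBP1, so EDEM2 was no longer called. Of the 24 members that fell with ZNF783 siRNA, 14 share no exon bases with a gene on the other strand, as do 11 of the 22 called higher with ETS1 siRNA without replicate 1.

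The effects of the siRNAs were then compared in 1 fit of 12 libraries, as the ETS1 siRNA effect minus the ZNF783 siRNA effect. The experiments share no control libraries, and loss of ETS1 could not be checked, as given above. The effects differed for 13 members, all higher with ETS1 siRNA than with ZNF783 siRNA, and for none in the other direction, where 1.11% of 19594 genes were higher and 0.577% lower. HSPA5 differed by 0.76 ± 0.059 on the log2 scale (adjusted p = 6.44e-05), HYOU1 by 0.69 ± 0.063 (adjusted p = 0.000182), MANF by 0.63 ± 0.093 (adjusted p = 0.0049), PDIA4 by 0.58 ± 0.077 (adjusted p = 0.00262) and DNAJC3 by 0.50 ± 0.064 (adjusted p = 0.00193). These 5 kept their call in 24 of 24 alternatives. The others were ERO1A, DNAJB11, HERPUD1, HSPA13, PDIA3, SEL1L, PDIA6 and CALR, at 0.47 to 0.31. The count was 8 without ETS1 control replicate 3, without ZNF783 siRNA replicate 3, or without ZNF783 control replicate 1 or 3. In those fits 100 to 111 of all genes were higher. By role the 13 were 6 chaperones, 1 lectin, 4 disulfide enzymes and 2 degradation genes, with no sensor and no translocon subunit. Without ETS1 siRNA replicate 1 the count was 23 higher, beside 6.25% of all genes, and 2 lower (CREBRF and OS9), beside 7.41%.

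Setting the calls of the separate tests side by side, 13 members were called higher with ETS1 siRNA without replicate 1 and lower with ZNF783 siRNA: HSPA5, HYOU1, HSPA13, DNAJB11, DNAJC3, SDF2L1, MANF, CRELD2, CALR, PDIA4, PDIA6, SEL1L and HERPUD1. Of 17548 genes tested in both experiments, 0.917% had this pair of calls. ATF6 and CREBRF were higher with both siRNAs, as were 3.61% of all genes, and EDEM2 and SEC61A1 lower with both, as were 5.42%. These calls are without the correction for GC content and length, with which EDEM2 lost its call with ETS1 siRNA. No member was lower with ETS1 siRNA and higher with ZNF783 siRNA, where 0.929% of all genes were. As a description over the 44 members, the effects of the siRNAs had a Pearson r of 0.00733 without replicate 1 and of 0.274 with it. Without replicate 1 and with both effects corrected for GC content and length, r was -0.234.

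**Figure D4:**
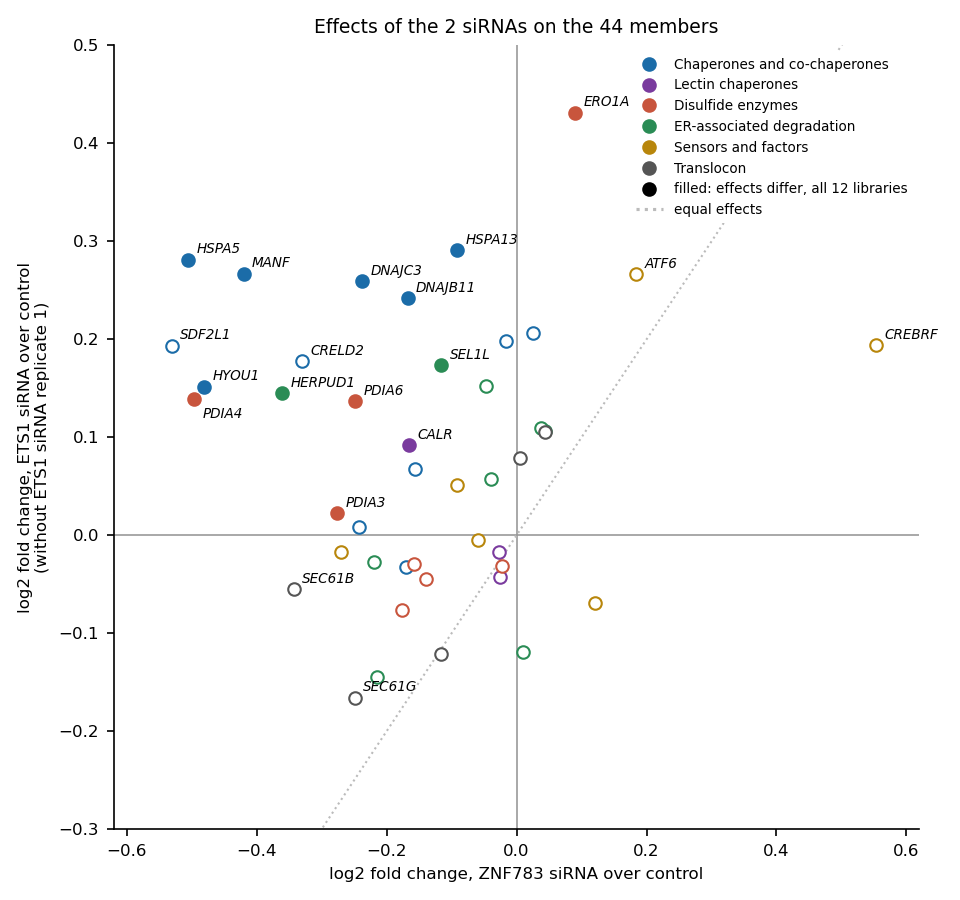
Log2 fold change of each of the 44 members with ETS1 siRNA without replicate 1 (vertical axis) against that with ZNF783 siRNA (horizontal axis), coloured by role; the dotted line marks equal effects. Filled points are the 13 members whose effects differed over all 12 libraries, and HSPA5, MANF, HYOU1 and PDIA4 lie at the upper left.

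Of the 11 members that hold an ERSE or ERSE-II, 8 fell with ZNF783 siRNA, none rose, and the median log2 fold change was -0.25, from -0.53 for SDF2L1 to -0.02 for HSP90B1. Of the 30 members whose promoters held neither element 14 fell, 2 rose, and the median was -0.10. Of all genes tested, as given above, 13.8% fell and 11.3% rose. With ETS1 siRNA without replicate 1, 8 of the 11 were called higher and none lower, and 14 of the 30 were higher and 4 lower. In that fit 9.96% of all genes were higher and 13% lower, so the 4 of 30 lower was near the share of all genes. CANX, HSP90B1 and XBP1 hold an ERSE and did not pass with ZNF783 siRNA before the correction for GC content and length. With it, 11 of the 11 were called lower with ZNF783 siRNA, against 14 of the 30 lower and 2 higher, beside 11.5% lower and 7.79% higher of all genes. With ETS1 siRNA without replicate 1 the corrected calls were 8 higher and 3 lower of the 11, against 10 higher and 3 lower of the 30. In that fit 7.78% of all genes were higher and 12.4% lower, and the 3 of 30 lower was near the latter. PDIA4 and MANF hold neither element in these windows and fell by 0.50 and 0.42.

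Other genes of the secretory pathway were counted from further lists with ZNF783 siRNA, beside 13.8% of all genes lower and 11.3% higher. Of 24 other ER folding genes tested, 10 fell and none rose, led by PPIB, an ER prolyl isomerase (-0.31, adjusted p = 1.02e-10), and FKBP10 (-0.19, adjusted p = 3.68e-06). Of 28 other genes of ER import and early glycosylation, 8 fell and none rose, among them DDOST and RPN1 of the oligosaccharyltransferase, at -0.16 and -0.14. Of 20 other degradation genes 5 were lower, such as the ATPase VCP (-0.16), and 6 higher, such as ERLIN2 (0.17). Of 19 genes of ER-to-Golgi transport 7 were lower, such as the coat subunit SEC24D (-0.25), and 5 higher. Of 10 genes of the PERK branch 3 fell: CHAC1, CEBPB and TRIB3, at -0.26, -0.24 and -0.18. All calls in these further lists are without the correction for GC content and length. Over all genes the fold change with ZNF783 siRNA was lower at higher GC content (Spearman -0.53). The part of GC content in these calls was not tested. Of 29 cytosolic and mitochondrial chaperones tested 7 fell and 5 rose, among them HSPA8, the constitutive cytosolic Hsp70 (0.16, adjusted p = 4.47e-07).

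**Figure D5:**
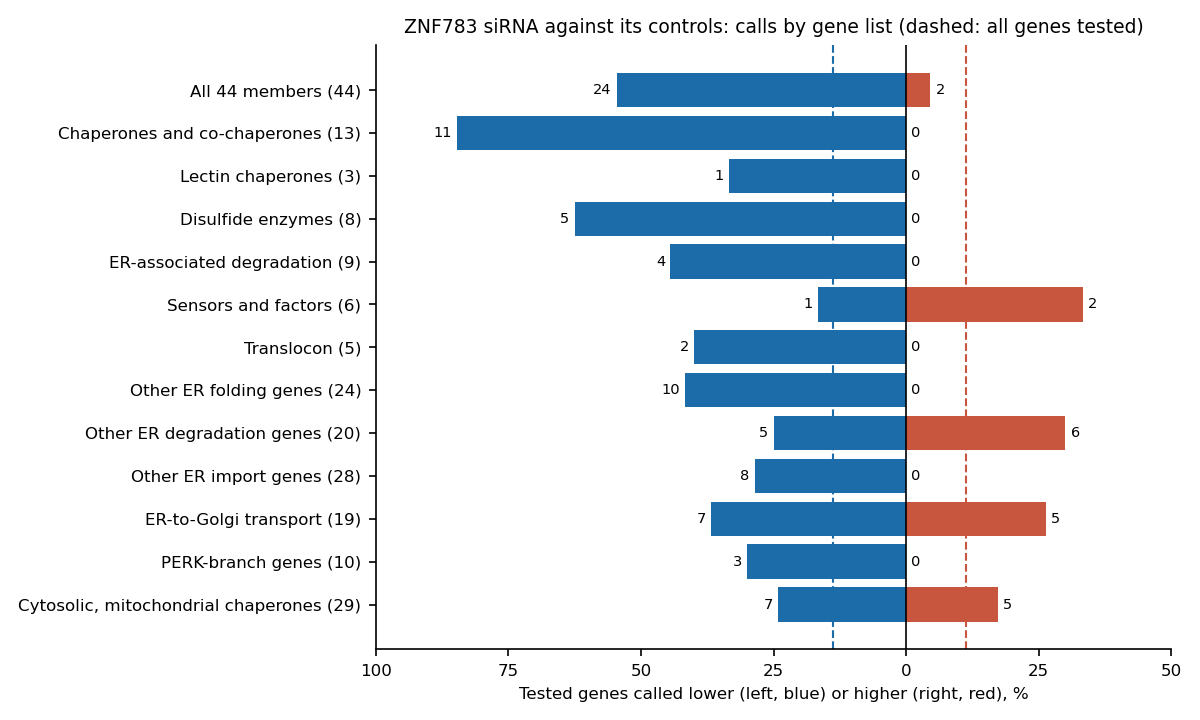
Share of tested genes called lower (left bars) or higher (right bars) with ZNF783 siRNA, in percent of each list, with the number called beside the bar and the number tested in parentheses. Dashed lines give the shares among all genes, 13.8% lower and 11.3% higher, and chaperones and co-chaperones reach 11 of 13 lower. Calls are without the correction for GC content and length.

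With ETS1 siRNA no gene of these further lists passed the test over all libraries. The calls without replicate 1 are likewise not corrected for GC content and length, where the Spearman correlation with GC content was -0.558 over all genes. The part of GC content in them was not tested. Without replicate 1, when 9.96% of all genes were higher and 13% lower, 7 of 25 other folding genes were higher and 3 lower, led by GANAB, a glucosidase subunit (0.37, adjusted p = 2.02e-16), and TMX3 (0.26, adjusted p = 6.12e-10). Of the import and early glycosylation genes 2 of 28 were higher and 10 lower, led by SRPRA, a subunit of the signal recognition particle receptor (-0.28, adjusted p = 2.11e-11), and SSR4 (-0.30, adjusted p = 1.66e-09). In the PERK branch DDIT3, ASNS and ATF3 were higher, at 0.20, 0.24 and 0.11, and CHAC1 was lower, at -0.19. Other degradation genes had 2 of 20 higher and 3 lower, transport genes 2 of 19 higher and 5 lower, and cytosolic and mitochondrial chaperones 5 of 31 higher and 8 lower.

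Of the marker lists of other cell types, some had summed levels that differed between groups and others overlapped. The plasma cell list of 5 genes, 2 of them over 3 counts with ZNF783 siRNA, summed to 190 to 199 CPM there, against 226 to 239 CPM in its controls, and to 99.5 to 150 CPM with ETS1 siRNA, against 162 to 171 CPM in its controls. Nearly all of that sum is SDC1, a syndecan that epithelial cells express too, with a mean of 190 CPM with ZNF783 siRNA, against 227 CPM in its controls. IGHG1, an immunoglobulin gene that defines plasma cells, was at 0 in every group. The fibroblast list of 5 genes summed to 37 to 40.5 CPM with ZNF783 siRNA, against 43.5 to 47 CPM in its controls, and overlapped with ETS1 siRNA, at 59.8 to 70.7 CPM, against 60.3 to 62.6 CPM. The leukocyte list of 5 genes overlapped in both experiments, at 1.48 to 2.29 CPM with ZNF783 siRNA, against 1.77 to 2.39 CPM, and at 1.55 to 2.08 CPM with ETS1 siRNA, against 1.47 to 1.93 CPM. The endothelial list of 4 genes did too, at 0.114 to 0.619 CPM with ZNF783 siRNA, against 0.409 to 1.16 CPM, and at 0.302 to 0.364 CPM with ETS1 siRNA, against 0.29 to 0.436 CPM. The luminal list of 8 genes, the markers of the cells themselves, summed to 3190 to 3220 CPM with ZNF783 siRNA, against 3420 to 3460 CPM, and to 3430 to 3460 CPM with ETS1 siRNA, against 3540 to 3570 CPM. The part of these shifts in the results was not tested.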

How the data were processed

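RNA-seq libraries of 22Rv1 cells numbered 12. The authors deposited raw counts, 1 table per experiment. These were made with featureCounts 2.0.1 from paired reads over the exons of each gene (GRCh38, annotation release 107), per the file headers, with no strand option although the kit was directional per the labels, so overlapping genes on opposite strands were not separated. The build hg38 comes from the submitters' processing notes. No source used here gives the aligner's version.

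Knockdown libraries were set against the controls of the same experiment in edgeR 4.0.16 (R 4.3.3): default expression filter, TMM scaling, robust quasi-likelihood F test with group as the only term, Benjamini-Hochberg adjustment over all genes tested, call at adjusted p below 0.05. The effects were compared in 1 fit of 12 libraries. Standard errors come from the F statistic. Levels are TMM-scaled CPM, scaled within each experiment, and CPM per kb uses exon length in GENCODE 29, as do coordinates (1-based). Total counts of 13518177 to 48996691 put the floor of 3 counts at 0.0612 to 0.222 CPM; the floor covers counting error only. The GC and length correction was a per-library spline offset. The procedure was tested on simulated data. Alternatives were other scalings and filters, DESeq2 1.42.0, limma 3.58.1 (voom, with and without quality weights), a replicate block, a 12-library fit, and leaving out each library.

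Members and lists were chosen with earlier results of these data known. Values in every library are given for HSPA5, HSP90B1, DNAJB9, XBP1, ERN1, ATF6, EIF2AK3, HERPUD1, SDF2L1 and the siRNA targets. They are also given for the 5 largest changes in each direction among called members of each comparison (without ETS1 siRNA replicate 1 for ETS1). Where fewer were called in a direction, the values of all are given. Those of CALR, SEL1L and SEC61B were added after their values were seen. From each further list up to 4 genes with the smallest adjusted p are named.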

Additional observations from a re-analysis of the deposited data

Results flagged for a closer look

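The ETS1 siRNA effect was higher than the ZNF783 siRNA effect by a test of the difference itself (edgeR quasi-likelihood test over 12 libraries, adjusted p below 0.05) for 13 members. In log2 units the differences among chaperones were 0.76 for HSPA5, 0.69 for HYOU1, 0.63 for MANF, 0.50 for DNAJC3, 0.47 for DNAJB11 and 0.40 for HSPA13. Among the other members they were 0.58 for PDIA4, 0.47 for ERO1A, 0.46 for HERPUD1, 0.38 for PDIA3, 0.37 for SEL1L, 0.37 for PDIA6 and 0.31 for CALR. HSPA5 was above control in 3 of 3 ETS1 siRNA libraries and below control in 3 of 3 ZNF783 siRNA libraries. ERO1A was above control in both experiments, by 0.55 with ETS1 siRNA and 0.09 with ZNF783 siRNA. The calls for CALR, ERO1A, PDIA3 and SEL1L held in 12, 11, 15 and 14 of 24 alternatives.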

How the results depend on the processing

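For ETS1 siRNA, 0 members were called over all 6 libraries. Parentheses give the calls in the same direction among all genes tested. Called higher were 2 with no expression filter (133 of 40221), 7 with DESeq2 (346 of 19542) and 20 with limma-voom and quality weights (1813 of 19542). The count was 1 with the GC and length correction (12 of 19542) and 11 in the fit of 12 libraries (975 of 19594). With that correction and no ETS1 siRNA replicate 1 it was 18 (1574 of 20237). Called lower were 3 with quality weights (1921 of 19542) and 6 with the correction and no replicate 1 (2509 of 20237), near or below the shares of all genes. Leaving out 1 library at a time gave 0 to 22 higher and 0 to 4 lower. The counts above 0 came without ETS1 siRNA replicate 1, where 9.96% of all genes were higher and 13% lower. For ZNF783 siRNA, the 24 lower and 2 higher became 9 and 1 in the fit of 12 libraries, beside 2.69% and 1.52% of all genes. For the difference, the 13 higher (217 of 19594) became 20 with no filter (478 of 42585) and 24 with quality weights (1349 of 19594). With the correction and no replicate 1 the count was 24 (1431 of 20018). At an adjusted p below 0.01 it was 8 (100 of 19594 in either direction). Leaving out a library gave 8 to 23, the highest without ETS1 siRNA replicate 1 (1251 of 20018). The lowest count came without ETS1 control replicate 3, ZNF783 siRNA replicate 3, or ZNF783 control replicate 1 or 3, where 100 to 111 of all genes were higher. The 0 lower became 1 with quality weights (1060 of 19594) and 1 with the correction (268 of 19594). It became 2 with the correction and no replicate 1 (1783 of 20018), and 0 to 2 on leaving out a library.

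Same-numbered libraries did not deviate together (r from -0.176 to 0.222), so the numbers were not taken to pair samples. With the replicate number as a block the difference gave 5 higher, beside 0.179% of all genes, and ETS1 siRNA 0. SDF2L1 with ETS1 siRNA was -0.14 and became 0.32 with the correction and no replicate 1, and ranged from -0.38 to 0.19 on leaving out a library. SEC63 with ZNF783 siRNA was 0.00 and became -0.080 with the correction, and -0.081 with block and correction together. The cause of these shifts was not tested. Of 2684 alternative values of single genes 91 had the other sign, 87 of them called in neither fit.

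ETS1 transcripts were at or under 3 counts in every library, and counting without strand limits members that overlap other genes.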
